A study of Mus musculus with 1 sample.

Results

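The cells described here are 169 Sertoli cells in which no transcript of Uchl1 was counted, out of 970 cell barcodes in 1 single-cell RNA library of mouse testis. Uchl1 encodes a deubiquitinating enzyme that is abundant in spermatogonia and is often used to mark them. A barcode was chosen when it met several conditions at once. It had at least 500 genes and less than 10% of its unique molecular identifiers (UMIs, which stand for counted transcript molecules) from mitochondrial genes. It had fewer than 4 UMIs per 10000 from 5 germ cell genes, Dazl, Ddx4, Mael, Zbtb16 and Sohlh1. Its summed UMIs of Clu, Inha, Defb19 and Rhox8 came to at least 5 and exceeded the sums for stromal genes (Dcn, Col1a1, Col3a1), myoid genes (Acta2, Myl9, Tagln) and macrophage genes (Lyz2, C1qa, Fcer1g). Finally it had 0 UMIs of Uchl1.

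The library came from wild-type C57BL/6 mice at postnatal day 8, and the cells of 3 mice were pooled in equal numbers before loading. Spermatogonia had been enriched with magnetic beads against the surface protein THY1, and a small number of unselected testis cells was mixed back in. The study also made a Zscan2 knockout library, which was not analysed here. With the mice pooled there is 1 sample and no replicate, so no test was made, and every interval is an exact one at the 95% level for the error of counting alone.

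Sertoli cells line the seminiferous tubule and hold the germ cells. They make ligands on which spermatogonia depend, such as GDNF and KIT ligand, and they seal the tubule with tight junctions that mature around puberty. In the first postnatal weeks they still divide, respond to FSH and thyroid hormone, and secrete anti-Müllerian hormone.

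The 169 Uchl1-negative Sertoli cells held 1496357 UMIs. Per cell the lowest, median and highest depths were 2979, 8343 and 21938 UMIs, and the numbers of genes detected were 1370, 2888 and 5449. They were set beside 3 groups of the same library. The first was 94 Sertoli cells that met the same rule but had at least 1 Uchl1 UMI (median depth 8629.5 UMIs). The second was 324 other somatic cells (median depth 8059), of which 175 had the stromal sum as the largest, 106 the myoid sum and 43 the macrophage sum. The third was 327 germ cells, with at least 4 germ marker UMIs per 10000 (median depth 18213). A further 10 kept cells met none of these rules and 46 barcodes were removed. Mitochondrial genes gave 6.07% of UMIs in Uchl1-negative Sertoli cells, 3.35% in other somatic cells and 6.79% in germ cells, and ribosomal protein genes gave 22.5%, 30.2% and 28.4%. With both kinds of gene left out of the totals, the genes past 4-fold described below numbered 489 higher and 790 lower against other somatic cells and 893 and 1152 against germ cells.

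Uchl1-negative cells made up 169 of the 263 Sertoli cells, a share of 64.3% (interval 58.1 to 70.1%). Among the Sertoli cells with Uchl1, 53 had a single UMI, 17 had 2 and 24 had 3 or more, up to 14 in 1 cell. The same transcript was found in 98.2% of germ cells and in 13.0% of the other somatic cells, among them 11.4% of stromal cells, 11.3% of myoid cells and 23.3% of macrophages, whose median depth was 12321 UMIs. When each cell was thinned to 5000 UMIs and the rule was applied again, the share of Sertoli cells without Uchl1 was 71.7%. At that depth Uchl1 was detected in 4.94% of stromal cells, 5% of myoid cells, 7.32% of macrophages and 74.7% of the Sertoli cells that had it at full depth. A count of 0 in a cell of this depth does not show that the transcript was absent, and 53 of the 94 Sertoli cells on the other side of the line were a single UMI away from it.

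The 4 genes of the rule describe the cells and are not findings about them. Their summed UMIs per cell had a lowest value of 6, a median of 72 and a highest of 249, while the second largest of the 4 sums had a median of 1 and a highest of 16. Just inside the limit lay cells with sums of 6, 19, 19, 20 and 24, and 1 kept non-germ cell without Uchl1 had the Sertoli sum as its largest but below 5. The highest germ marker levels among the chosen cells were 3.63, 3.44 and 2.50 per 10000 UMIs, 131 of the 169 had none, and 1 cell left out for germ markers alone was at 6.46. The highest mitochondrial share was 9.91%, and the lowest among removed barcodes that met the rest of the rule was 10.1%.

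The name Sertoli cell was checked with 9 markers that the rule did not use: Cst12, Cst9, Amh, Sox9, Wt1, Cldn11, Aard, Fshr and Dhh. Like the lists, they were chosen with earlier results of these data known, so the check is not independent of the data. At least 3 of the 9 were detected in 165 of the 169 cells and at least 6 in 159. The limit of 3 was also reached by 16 of the 324 other somatic cells and 37 of the 327 germ cells. The 165 cells include 2 of the cells with Leydig transcripts described next.

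Within the group 7 cells stood apart. In 5 of them at least 5 UMIs were counted over 5 genes of Leydig cells, the steroid-producing cells between the tubules (Star, Cyp11a1, Cyp17a1, Hsd3b1 and Insl3). Their Leydig gene sums were 17, 26, 45, 127 and 377 UMIs, whereas the other 164 cells had 0 to 2. Their sums of the 4 rule genes were 39, 19, 32, 68 and 154, so they passed the rule, but none had a Cst12 UMI and only 1 had a Cst9 UMI. Over the 9 unused Sertoli markers they held 0 to 4 UMIs (median 1), against 2 to 203 (median 60) in the other 164 cells. These 5 cells go against the name Sertoli cell. They were kept, since the rule admits them, and values that rest on them are given with and without them. With them all 5 Leydig genes were detected and summed to 410 UMIs per 1000000 (CPM), led by Hsd3b1 at 177 CPM. Without them the sum was 14.8 CPM and Insl3 was at 0. Among the rest, 1 Sertoli cell with Uchl1, 4 other somatic cells and 0 germ cells also reached 5 Leydig gene UMIs. Another cell, with 11747 UMIs and no Leydig transcripts, also goes against the name. All 29 UMIs of its rule sum came from Defb19, its second largest sum was 16, and of the unused markers it had only 2 UMIs of Aard. Leaving it out moved no named gene's ratio out of its interval and no count of genes by over 1.5 times. The seventh is the cell with the lowest rule sum, 6, which had 16 UMIs over 7 of the 9 unused markers, 4 of them from Sox9. It alone held 78 of the 283 UMIs of the gene 1700011M02Rik.

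**Figure D1:**
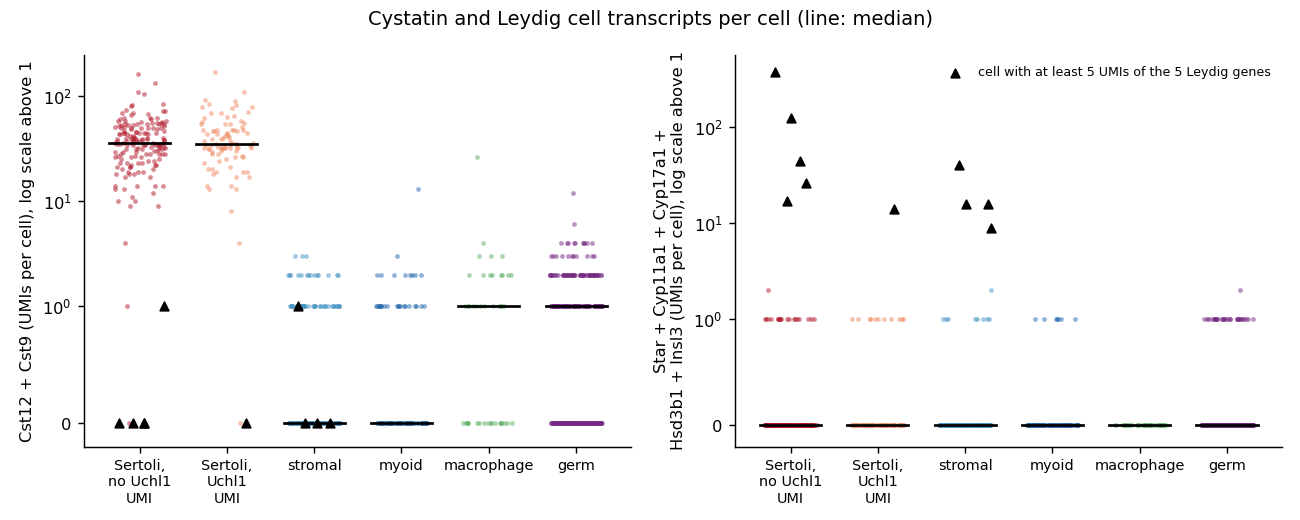
Each point is 1 cell, and both vertical axes are UMIs per cell on a log scale above 1. Left, Cst12 plus Cst9, which the rule did not use, and right, the 5 Leydig cell genes, in the classes of kept cells, with a line at the median; triangles mark cells with at least 5 Leydig gene UMIs. On the left most Uchl1-negative Sertoli cells lie at the height of the Sertoli cells with Uchl1 and far above stromal, myoid, macrophage and germ cells, while the 5 triangles of their column sit at 0 or 1, and on the right these 5 cells reach 17 to 377 UMIs.

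The lists for other cell types held genes of the rule, which the rule itself keeps low in the chosen cells, and 2 others each. Of these others, the germ cell genes Taf4b and Tdrd1 summed to 9.36 CPM in Uchl1-negative cells and 81.4 in germ cells, and the stromal genes Pdgfra and Lum to 4.01 CPM and 421 in stromal cells. The myoid genes Myh11 and Cnn1 had 3 UMIs, against 652 CPM in myoid cells, and the macrophage genes Csf1r and Cd68 were at 6.68 CPM, against 1641 in macrophages. The whole germ list summed to 40.1 CPM in the Uchl1-negative cells, 34.8 in other somatic cells and 1839 in germ cells. The stromal list was at 74.8 CPM (47.1 without the 5 cells with Leydig transcripts) against 7912 in stromal cells, and the myoid list at 121 CPM against 11445 in myoid cells. The macrophage list was at 37.4 CPM against 16476 in macrophages. Endothelial genes summed to 33.4 CPM, T cell genes to 2.67 CPM and hemoglobin genes to 81.5 CPM, the last against 87.1 in germ cells.

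Levels are summed UMIs of a group per 1000000 UMIs of that group, and differences are log2 ratios of such levels. Genes with fewer than 50 UMIs in the 2 groups together were not compared, and a gene high in 1 group passes that limit through that group. Against other somatic cells 6.8% of the 8050 genes compared were higher by at least 4-fold in Uchl1-negative Sertoli cells (547 genes) and 9.44% were lower (760 genes). Against germ cells 10.2% of 9404 genes were higher (958 genes) and 11.2% lower (1049 genes). The groups were chosen on transcripts of these same cells, so these shares are the background for the counts below and not a result. Over the compared genes with UMIs in both groups the median log2 ratio was 0.31 against other somatic cells and -0.11 against germ cells, and each difference stands beside that shift.

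Sertoli cell markers outside the rule were higher nearly without exception. Of 16 in the list, 14 could be compared with each group, and 13 of the 14 were higher by at least 4-fold against both other somatic cells (median log2 ratio of the list 5.28, of all genes 0.30) and germ cells (6.21, of all genes -0.14). Amh, which encodes anti-Müllerian hormone, had a lowest, median and highest count per cell of 0, 4 and 23 UMIs, and of 0, 0 and 2 in other somatic as in germ cells. Its level was 489 CPM, with a log2 ratio of 6.78 (interval 6.00 to 7.70) against other somatic cells and 7.24 (6.57 to 8.01) against germ cells. Dhh, the hedgehog ligand of Sertoli cells, was at 205 CPM against 3.42 and 1.61. Aard was at 857 CPM and Mro at 425 CPM, and Cldn11, which encodes a tight junction claudin, was at 400 CPM against 8.20 in other somatic cells and 6.99 in germ cells. Fshr, the FSH receptor gene, had 30 UMIs in all, too few to compare, in 27 of the cells. The exception was Trf, the transferrin gene, at 6.68 CPM against 51.9 in other somatic cells (log2 ratio -2.96, -4.05 to -2.04). Markers at this level were also counted at a low level elsewhere. For 10 genes outside the rule (Cst12, Cst9, Amh, Sox9, Wt1, Cldn11, Aard, Dhh, Defb36 and Gstm6) the level in germ cells was 0.660 to 1.81% of that in Uchl1-negative cells (median 1.39%), and in other somatic cells 0.909 to 3.44% (median 1.67%). Whether free RNA gave these counts was not tested.

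Cst12 and Cst9, a pair of secreted cysteine protease inhibitors of the cystatin family, were among the markers outside the rule. Cst12 had 0, 18 and 80 UMIs per cell as lowest, median and highest value, against 0, 0 and 19 in other somatic cells and 0, 0 and 5 in germ cells. Its level of 2233 CPM gave log2 ratios of 5.91 (5.63 to 6.20) and 6.56 (6.31 to 6.82). Cst9 had 0, 17 and 82 UMIs per cell, and its level of 2093 CPM gave log2 ratios of 6.16 (5.85 to 6.48) and 6.17 (5.94 to 6.41). Only 5 of the 169 cells, 4 of them with Leydig transcripts, had 0 UMIs of both genes. Thinned to 5000 UMIs, 95.4% of 153 Uchl1-negative cells had a Cst12 UMI and 95.4% a Cst9 UMI, and of germ cells 10.7% and 13.9%.

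Both genes lie in a cluster of 9 protein-coding cystatin genes on chromosome 2, from 148750358 to 148875692 of GRCm38 in the GENCODE annotation. The cluster was looked at after the values had been seen. Reads of such related genes can be hard to assign, so their split is uncertain. Between Cst12 and Cst9 lie Cst8 (start site 9.42 kb past that of Cst12), at 118 CPM, and Cst13, with 3 UMIs in all. On the other side lies 8030411F24Rik (7.35 kb before Cst12), called Cstdc1 by RefSeq, at 101 CPM, and then Cst11 at 17.4 CPM. Cstl1 and 9230104L09Rik, inside the same stretch, had 0 UMIs. Cst3 at its end, the cystatin C gene expressed in many tissues, was at 694 CPM against 1250 in other somatic cells (log2 ratio -0.85, -0.95 to -0.75). Of the 177 Cst8 UMIs, 68 came from the 5 cells with Leydig transcripts, and without them its level was 76.7 CPM. Along the cluster, genes detected in most of these cells lay beside genes at or near 0 UMIs.

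The promoters of Cst12 and Cst9, the pair with the most UMIs in the cluster, and of their neighbours 8030411F24Rik and Cst8, are shown so that their starts can be compared. Each runs 5′ to 3′ from 250 bases before to 50 after the start in RefSeq on GRCm38.p6, plus strand, with motif matches in capitals. The windows are chr2:148789115-148789414 for Cst12, chr2:148834897-148835196 for Cst9, chr2:148781759-148782058 for 8030411F24Rik and chr2:148798589-148798888 for Cst8.
Cst12: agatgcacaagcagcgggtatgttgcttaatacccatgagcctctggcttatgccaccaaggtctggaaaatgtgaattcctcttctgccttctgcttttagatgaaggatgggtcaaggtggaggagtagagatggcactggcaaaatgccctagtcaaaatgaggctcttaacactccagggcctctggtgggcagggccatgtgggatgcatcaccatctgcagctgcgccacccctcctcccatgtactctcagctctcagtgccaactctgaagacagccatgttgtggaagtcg
Cst9: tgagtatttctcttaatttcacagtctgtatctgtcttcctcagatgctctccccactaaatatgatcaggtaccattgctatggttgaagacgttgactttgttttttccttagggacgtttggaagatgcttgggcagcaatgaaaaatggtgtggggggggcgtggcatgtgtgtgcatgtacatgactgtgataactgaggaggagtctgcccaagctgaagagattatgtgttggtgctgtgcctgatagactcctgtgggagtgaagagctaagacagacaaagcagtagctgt
8030411F24Rik: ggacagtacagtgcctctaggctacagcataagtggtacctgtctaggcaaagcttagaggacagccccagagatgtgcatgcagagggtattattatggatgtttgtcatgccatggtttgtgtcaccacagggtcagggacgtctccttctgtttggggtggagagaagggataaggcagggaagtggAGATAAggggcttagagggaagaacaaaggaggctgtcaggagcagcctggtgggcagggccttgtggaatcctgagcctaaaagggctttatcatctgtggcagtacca
Cst8: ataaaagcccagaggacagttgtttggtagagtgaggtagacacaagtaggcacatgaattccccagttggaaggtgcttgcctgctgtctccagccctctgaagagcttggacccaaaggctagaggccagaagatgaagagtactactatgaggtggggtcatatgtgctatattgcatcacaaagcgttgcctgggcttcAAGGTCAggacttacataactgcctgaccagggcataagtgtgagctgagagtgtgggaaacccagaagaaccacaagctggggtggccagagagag
Short motifs were searched for on both strands, in 29 genes that were those of the cluster, the 4 rule genes, Sertoli cell markers and those with the highest ratios against other somatic cells, of which 19 matched a window. The motif bound by the Sertoli cell factor NR5A1, AAGGTCA, capital in Cst8, was in 3 of the 19 (with Cst13 and Shisa8), against 5.38% of all 27025 genes with a window. The motif of factors such as GATA4 and GATA6, AGATAA, capital in 8030411F24Rik, was in 4 of the 19 (with 9230104L09Rik, Edn1 and Shbg), against 12.7% of genes. A SOX motif, AACAAT, was in 1 of the 19 and in 12.2% of genes. The core promoter motif TATAAA was in 2 of the 19 and in 15.7% of genes, and the cAMP response element TGACGTCA in 0 of the 19 and in 2.03% of genes. None of these motifs occurred in the windows of Cst12 and Cst9. A match describes these letters only.

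**Figure D2:**
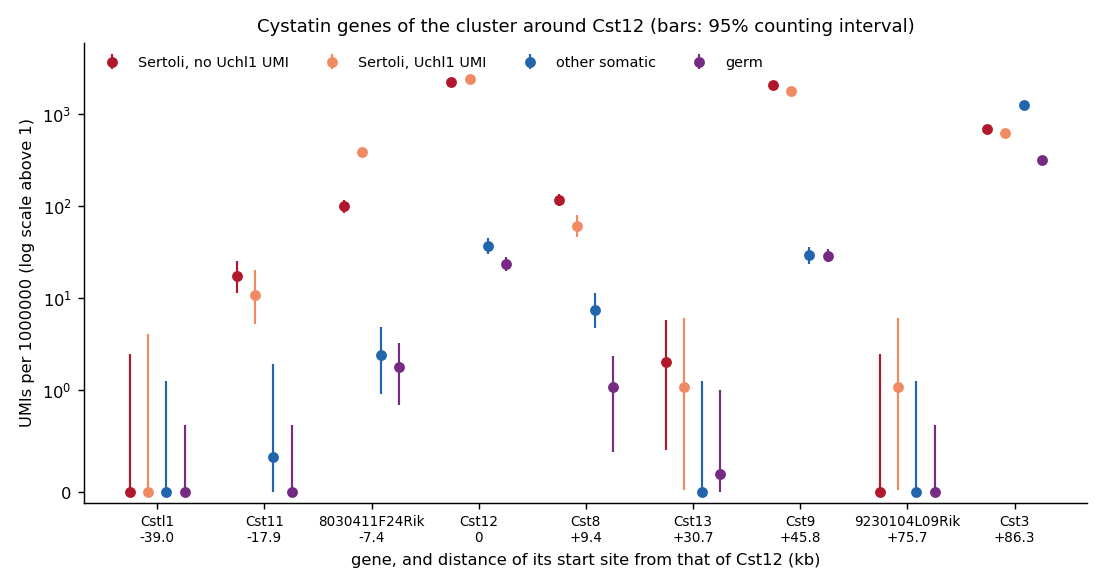
The horizontal axis lists the 9 cystatin genes in their order on the chromosome with the distance of each start site from that of Cst12 in kb, and the vertical axis is UMIs per 1000000 on a log scale above 1, with 95% counting intervals. Cst12 and Cst9 lie between 1791 and 2417 in both groups of Sertoli cells and at 23.7 to 37.2 elsewhere, 8030411F24Rik separates the groups of Sertoli cells (101 and 390 CPM), and only Cst3 is higher in other somatic cells.

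Other secreted proteins and enzymes were mixed. The beta-defensin gene Defb36, a relative of the rule gene Defb19, was at 741 CPM against 12.0 in other somatic cells and 13.4 in germ cells, and was the only beta-defensin of the list outside the rule with enough UMIs to compare. Among cystatins, cathepsins and protease inhibitors 16 genes could be compared with other somatic cells. Of these, 5 were higher by at least 4-fold and 4 lower, with a median log2 ratio of -0.98. Among the higher ones was Ctsl, a lysosomal cysteine protease gene, at 1800 CPM against 335 (log2 ratio 2.43, 2.32 to 2.53), and among the lower ones Serping1, the C1 inhibitor gene, at 3.34 CPM against 218. Against germ cells 8 of 13 were higher and 0 lower (median log2 ratio 3.01). The summed level of this list was 7875 CPM, against 2812 in stromal cells, 2364 in myoid cells and 10082 in macrophages. Glutathione S-transferases, which conjugate reactive compounds, were higher in 7 of 13 genes against other somatic cells (median log2 ratio 2.35) and in 8 of 12 against germ cells (4.26), and lower in 0. Gstm1 was detected in every Uchl1-negative cell, with 1, 24 and 155 UMIs as lowest, median and highest count. Gstm6 was at 1263 CPM against 20.5 in other somatic cells and 20.6 in germ cells. The Gstm genes are close paralogs, and how reads were shared between them is uncertain.

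Transcription factors of the gonad split by cell type. Of 13 compared with other somatic cells 6 were higher by at least 4-fold and 4 lower (median log2 ratio 1.87), and of 12 compared with germ cells 9 were higher and 2 lower (5.15). Sox9, the factor that sets Sertoli cell fate, had 0, 3 and 11 UMIs per cell and a level of 398 CPM (log2 ratio 4.86, 4.40 to 5.36, against other somatic cells, and 5.99, 5.49 to 6.52, against germ cells). Its relative Sox8 was at 76.2 CPM against 2.39 and 2.51. Wt1, which Sertoli cells need to keep their identity, was at 307 CPM with log2 ratios of 5.35 (4.74 to 6.04) and 6.16 (5.57 to 6.82). GATA factors were detected as well. Gata4 was at 132 CPM against 27.7 in other somatic cells, a smaller difference (2.26, 1.88 to 2.65), and Gata6 at 100.2 CPM against 3.42 (4.88, 3.96 to 5.96). Gata1 had 49 UMIs in the Uchl1-negative cells and 0 in other somatic cells, which is too few UMIs to compare. Nr5a1, the steroidogenic factor gene, was at 76.2 CPM against 31.4 (1.28, 0.87 to 1.69), within 4-fold of other somatic cells. Dmrt1, used by Sertoli cells and germ cells alike, was at 126 CPM, above other somatic cells at 4.44 but below germ cells at 301 (log2 ratio -1.25, -1.48 to -1.04). The lower ones were factors of interstitial and stromal cells. Tcf21 had 3 UMIs against 549, Nr2f2 at 12.0 against 293, and Lhx9 had 1 UMI against 196, a log2 ratio of -6.65 (-11.96 to -4.15).

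Ligands that act on germ cells were unevenly divided between the somatic cells. Only 8 of the 16 in the list had enough UMIs to compare with other somatic cells, of which 2 were higher by at least 4-fold and 4 lower (median log2 ratio -2.32). Gdnf, the self-renewal factor of spermatogonial stem cells, was sparse, with 0, 0 and 3 UMIs per cell and 27.4 CPM, against 4.44 in other somatic cells (log2 ratio 2.63, 1.70 to 3.65). Thinned to 5000 UMIs, 11.1% of Uchl1-negative cells (6.61 to 17.2%) and 6% of myoid cells (2.23 to 12.6%) had a Gdnf UMI. Stromal cells and macrophages were at 0%, so the ratio to the pooled group need not hold against myoid cells. Kitl, the ligand of the KIT receptor of differentiating spermatogonia, had 0, 1 and 10 UMIs per cell and 192 CPM against 24.6 (2.96, 2.59 to 3.36). At 5000 UMIs per cell Kitl was detected in 60.1% of Uchl1-negative cells and 18.5% of stromal cells. Wnt6 was at 498 CPM against 135 in other somatic cells, just under the 4-fold limit (1.88, 1.70 to 2.06), and against 5.56 in germ cells. The lower ones included the chemokine gene Cxcl12, with 5 UMIs against 1109 (log2 ratio -6.82, -8.45 to -5.60), and Igf1, at 11.4 CPM against 493 (-5.44, -6.22 to -4.75). Fgf2 had 1 UMI against 50.

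Hormone and TGF-beta genes went both ways, among them the beta subunit genes Inhbb and Inhba in opposite directions. Of 13 compared with other somatic cells 5 were higher by at least 4-fold and 3 lower (median log2 ratio 0.92), and against germ cells 7 of 10 were higher and 1 lower (4.70). Amhr2, the receptor gene for anti-Müllerian hormone, was at 348 CPM against 7.17 in other somatic cells (5.60, 4.97 to 6.31). Inhbb, the inhibin and activin beta B gene, was at 166 CPM against 5.46 (4.93, 4.20 to 5.76). The beta A gene Inhba was at 14.03 CPM against 243 (-4.12, -4.82 to -3.49), and at 1.41 CPM without the 5 cells with Leydig transcripts. Pdgfa, a growth factor gene with receptors on interstitial cells, was at 122 CPM against 25.3 (2.27, 1.88 to 2.68). Ptch1, the hedgehog receptor gene whose level hedgehog signaling raises, was at 43.4 CPM against 163 in other somatic cells, in contrast to the ligand gene Dhh. The thyroid hormone receptor gene Thra was at 462 CPM against 245 in other somatic cells (0.92, 0.76 to 1.07) and 11.8 in germ cells.

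**Figure D3:**
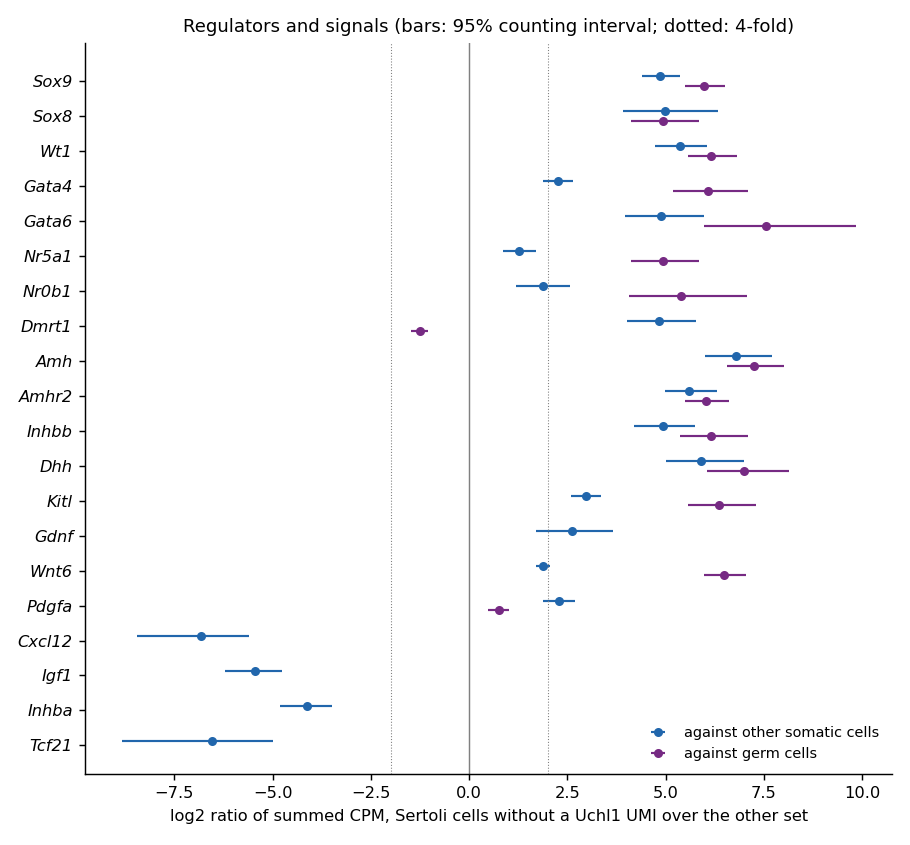
The horizontal axis is the log2 ratio of summed CPM of Uchl1-negative Sertoli cells over other somatic cells (blue) or germ cells (purple), with 95% counting intervals and dotted lines at 4-fold. The genes are transcription factors and signals from the fixed lists, and a point is left out where the 2 groups together had fewer than 50 UMIs. Amh lies near 7 in both comparisons, Dmrt1 lies on opposite sides of 0, and Cxcl12, Igf1, Inhba and Tcf21 lie below -4 against other somatic cells.

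Retinoid genes were mixed. Of 9 compared with other somatic cells 3 were higher by at least 4-fold and 2 lower (median log2 ratio 0.15). Aldh1a1, which makes retinoic acid, was at 866 CPM against 134 (2.69, 2.53 to 2.86), and at 765 CPM without the 5 cells with Leydig transcripts. The retinoic acid degrading enzyme gene Cyp26b1 was at 24.1 CPM against 235 (-3.29, -3.81 to -2.80). Stra6, the receptor gene for retinol uptake, was at 33.4 CPM against 3.07 (3.44, 2.40 to 4.65). Against germ cells 3 of 11 were higher and 2 lower (median log2 ratio 0.54), the lower ones including the retinoic acid binding protein gene Crabp1, with 3 UMIs against 1063.

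Of 11 junction genes compared with other somatic cells 7 were higher by at least 4-fold and 0 lower (median log2 ratio 3.49), and of 13 compared with germ cells 6 were higher and 1 lower (1.83). Genes within 4-fold included the catenin gene Ctnna1, at 64.2 CPM against 50.2 in other somatic cells (0.35, -0.033 to 0.73), and Tjp1, the ZO-1 gene, at 47.4 CPM, below germ cells at 77.4 (-0.71, -1.09 to -0.34). Cldn3 was the one lower than in germ cells, at 0 against 55 UMIs. Gja1, which encodes the gap junction protein connexin 43, was at 294 CPM against 7.51 in other somatic cells (5.29, 4.67 to 5.98) and 1.79 in germ cells (7.36, 6.47 to 8.43). Cgn, the tight junction plaque gene for cingulin, was at 163 CPM against 3.07 (5.73, 4.78 to 6.88), and Jam2 at 162 CPM against 8.54 (4.24, 3.65 to 4.90). Cdh2, the N-cadherin gene, was at 42.8 CPM against 6.15 (2.80, 2.03 to 3.64), and Ocln, the occludin gene, had 41 UMIs against 2, too few to compare. Basement membrane genes went the other way against other somatic cells, with 0 of 10 higher and 7 lower (median log2 ratio -2.92). The laminin gene Lama2 was at 4.68 CPM against 161, and Col4a1 at 38.8 CPM against 320 (-3.04, -3.45 to -2.66). Against germ cells 4 of 9 were higher and 1 lower (1.53), with Sparc, a matrix-binding glycoprotein gene, at 1398 CPM against 53.2.

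Of 10 glucose and lactate genes 1 was higher by at least 4-fold than in other somatic cells and 0 lower (median log2 ratio 0.88), and of 14 compared with germ cells 4 were higher and 0 lower (0.47). The lactate dehydrogenase gene Ldhb was at 861 CPM against 162 in other somatic cells (2.41, 2.26 to 2.57), while Ldha was at 156 CPM against 210 (-0.43, -0.65 to -0.21). The monocarboxylate transporter gene Slc16a3 was at 78.2 CPM against 20.8 in other somatic and 4.48 in germ cells. Sertoli cells clear dying germ cells, and of 15 engulfment and lipid genes 1 was higher and 2 lower than in other somatic cells (median log2 ratio -0.84). The summed level of these genes was 1246 CPM, against 994 in stromal cells, 1247 in myoid cells and 14971 in macrophages. The higher one was the receptor gene Tyro3, at 180 CPM against 9.56 (4.24, 3.67 to 4.85), whose ligand gene Gas6 was at 242 CPM against 205. The lower ones were Apoe, at 73.5 CPM against 2527 (25.3 CPM without the 5 cells with Leydig transcripts), and Cd36, with 2 UMIs against 245. In macrophages Apoe was at 11694 CPM, in stromal cells at 294 and in myoid cells at 188, and 244 of the 245 Cd36 UMIs were in macrophages. Of 13 cytoskeletal genes 2 were higher and 1 lower (0.42), the higher ones being Tubb3, at 185 CPM against 18.1, and the actin-bundling gene Espn, at 161 CPM against 6.83. The intermediate filament gene Vim was at 578 CPM against 1285 in other somatic and 12.4 in germ cells.

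Of iron and metal genes 0 of 7 were higher and 3 lower by at least 4-fold than in other somatic cells (median log2 ratio -1.89), and 0 of 6 higher and 2 lower than in germ cells (-1.11). Their summed level was 4560 CPM, against 5581 in stromal cells, 4004 in myoid cells, 51880 in macrophages and 9436 in germ cells. The metallothionein genes Mt1 and Mt2, at 428 and 91.6 CPM, were at 2045 and 2151 CPM in germ cells. Besides the rule gene Rhox8, the homeobox genes of the Rhox cluster were sparse, and none of the others had enough UMIs for a comparison with other somatic cells. The 4 that could be compared with germ cells were all lower, among them Rhox13 with 1 UMI against 355.

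Genes in the lists or not were ranked if they had at least 100 UMIs and a UMI in at least 25% of the higher group. Rule, mitochondrial and ribosomal protein genes were left out, and the 10 highest ratios in each comparison were taken. Against other somatic cells Shbg was one of them, the sex hormone binding globulin gene, whose testicular product is known as androgen-binding protein. It was detected in 50.3% of Uchl1-negative cells, at 87.5 CPM, and had 0 UMIs in the 324 other somatic cells, which makes it at least 85.4-fold higher by a floor of 3 counts over that group (lower interval limit 6.10 on the log2 scale). With so few UMIs in other somatic cells, the order of these 10 is not established. Others were Bcan (122 UMIs against 1, log2 ratio 7.90, 5.39 to 13.21), Gpr37 (117 against 1, 7.84, 5.33 to 13.15), Trank1 (250 against 3) and Edn1, the endothelin 1 gene (144 against 2). Hsd17b1, a steroid dehydrogenase gene, was at 207 CPM against 1.71, and Shisa8 at 364 CPM against 3.07, found in 66.3% and 81.1% of the cells. The 10 genes at the low end all had 0 UMIs in Uchl1-negative cells. They included Gm9780 (244 UMIs in other somatic cells, at least 41.6-fold lower by the same floor, upper interval limit of the log2 ratio -5.07), Mir143hg, the host gene of smooth muscle microRNAs (211), Tmem119 (199), Cdh11, a mesenchymal cadherin gene (162), and Des, the desmin gene of muscle cells (143).

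Against germ cells the largest ratios under the same limits were those of 2 genes without established names, Gm14226 (498 UMIs against 3, log2 ratio 9.27, 7.72 to 11.56) and 4933402E13Rik (166 against 2, 8.27, 6.40 to 11.33). Gata6, Jam2, Gja1, Shbg and Amh, described above, were among the 10, as were the long noncoding RNA Gm37350, at 592 CPM against 3.41, and Ptgds, a prostaglandin D synthase gene, at 88.2 CPM against 0.54. The 10 lowest again had 0 UMIs in Uchl1-negative cells. Among them were Map7d2 (563 UMIs in germ cells, at least 50.3-fold lower by the floor of 3 counts, upper interval limit of the log2 ratio -5.35), the RNA-binding protein gene Elavl2 (423, at least 37.8-fold, limit -4.94), Topaz1 (324) and Sohlh2, a spermatogonial transcription factor gene (248, at least 22.2-fold, limit -4.16).

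The nearest cells were the Sertoli cells with Uchl1, and the groups were close over most genes. The rule separates them by Uchl1 alone, and the values that follow describe them without a test. Of 5893 genes compared, 0.696% were higher by at least 2-fold in Uchl1-negative cells (41 genes) and 0.509% lower (30 genes), with a median log2 ratio of -0.0012. Sertoli markers outside the rule had a median log2 ratio of -0.11, and 0 of 13 passed 2-fold. Cst12 was at 2233 and 2417 CPM, Amh at 489 and 417, and Dhh at 205 and 207. Sox9, at 398 and 495 CPM, was slightly lower in Uchl1-negative cells (-0.31, -0.49 to -0.14).

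A few genes differed more. The lowest and highest were ranked among genes with at least 100 UMIs and a UMI in at least 25% of the higher group. Lowest of these in Uchl1-negative cells was Fstl3, the gene of an activin-binding protein, at 30.7 against 131 CPM (-2.09, -2.61 to -1.58). Also lower were the cystatin gene 8030411F24Rik (101 against 390, -1.95, -2.24 to -1.67) and Lgals1, the galectin 1 gene (559 against 1647, -1.56, -1.68 to -1.44). Cidea, a lipid droplet gene, was at 63.5 against 185 CPM, and Siva1, an apoptosis gene, at 258 against 741 CPM. The nuclear receptor gene Nr0b1 (-1.19, -1.71 to -0.68), Stra6 (-1.28, -1.83 to -0.74) and Wnt5a (-1.02, -1.76 to -0.28) from the fixed lists were also lower by 2-fold. With a mitochondrial limit of 5%, where 43 Uchl1-negative cells were left, the log2 ratio of Stra6 was 0.54. Highest within these limits was 4930486L24Rik, at 63.5 against 23.0 CPM (1.46, 0.77 to 2.22). Then came Ass1, the gene of a urea cycle enzyme (1.42, 0.71 to 2.20), at 58.8 CPM and at 40.8 CPM without the 5 cells with Leydig transcripts (log2 ratio 1.03 when such cells are left out of both groups), Mns1 (1.30, 0.60 to 2.07) and 1700011M02Rik (1.28, 0.90 to 1.68). The value of 1700011M02Rik was 0.82 (0.43 to 1.23) without the cell that held 78 of its UMIs, and -0.043 at the 5% mitochondrial limit. Apoe (1.26, 0.65 to 1.91) and the Leydig genes Cyp11a1, Cyp17a1 and Hsd3b1 also passed 2-fold. These Leydig genes, found in too few cells to be ranked, had a median log2 ratio of 6.76. Without the cells with at least 5 Leydig gene UMIs Apoe had a log2 ratio of -0.13. The Leydig genes were then at 2.11, 0.70 and 4.22 CPM in the Uchl1-negative cells.

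For several of these genes, but not all, the level moved in steps with the number of Uchl1 UMIs. For Lgals1 the level was 559 CPM (521 to 598) in the 169 cells with 0 Uchl1 UMIs, 742 (669 to 820) in the 53 cells with 1 and 2807 (2646 to 2977) in the 41 cells with 2 or more. Siva1 was at 258, 463 and 1098 CPM, 8030411F24Rik at 101, 246 and 576, and Fstl3 at 30.7, 56.6 and 225. Aldh1a1 went the other way, at 866, 656 and 363 CPM, as did Gas6 at 242, 184 and 133 CPM. For others the cells with 1 Uchl1 UMI lay near or beyond those with 2 or more. Ass1 was at 58.8, 15.6 and 30.0 CPM, Smc4 at 110, 48.8 and 57.6, Col4a2 at 44.8, 97.6 and 87.6, and Mns1 at 56.8, 23.4 and 22.5. Sertoli markers outside the rule went both ways. Cst12 was at 2233, 2263 and 2615 CPM and Sox9 at 398, 437 and 568, while Cst9 was at 2093, 1937 and 1604 and Amh at 489, 482 and 333. Fstl3, 8030411F24Rik, Lgals1, Siva1, Ass1, Smc4 and Mns1 were named for their difference between the groups. The others are only some of the genes of the fixed lists, so they are no unselected sample of them. The outer steps are no separate evidence of a difference between the groups, and cells with 1 UMI need not differ in kind from those with 0. The median depths of the 3 sets were 8343, 8518 and 8915 UMIs. Germ cells, rich in Uchl1, had Lgals1 at 218 CPM, and other somatic cells at 2765 CPM.

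**Figure D4:**
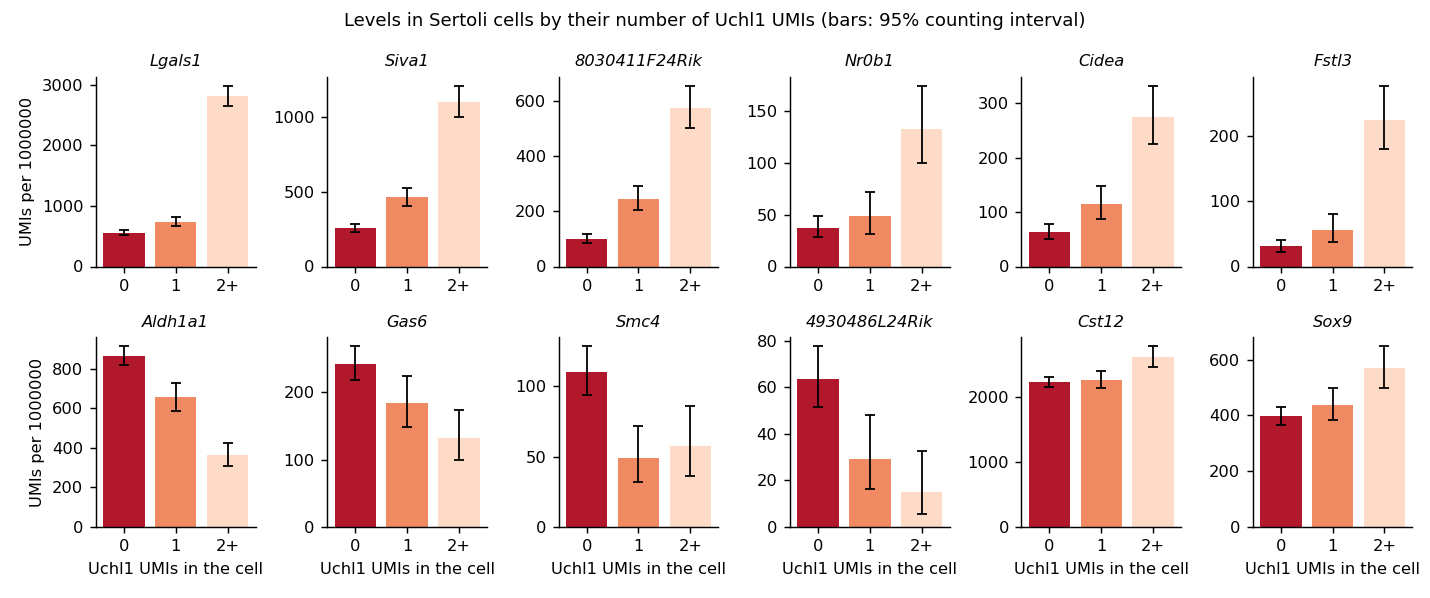
Bars give the summed UMIs per 1000000 of 12 genes in Sertoli cells with 0, 1 and 2 or more Uchl1 UMIs (169, 53 and 41 cells), with 95% counting intervals; every vertical axis starts at 0 and has its own scale. Lgals1, Siva1, 8030411F24Rik, Nr0b1, Cidea and Fstl3 are highest with 2 or more Uchl1 UMIs, Aldh1a1, Gas6 and 4930486L24Rik are highest with 0, and Cst12 and Sox9 differ less.

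The Uchl1-negative cells were also compared among themselves. Thinned to 4000 UMIs, which left 159 cells, the variance between cells was at least 2 times the mean for 70 of 1243 genes (5.63%), and the median ratio was 1.12, where 1 is counting noise alone. The number of such genes depends on the depth, and at 6000 UMIs it was 137. The largest was that of the nuclear noncoding RNA Malat1 (32.8, or 22.4 without the 5 cells with Leydig transcripts, with a median of 101 and a highest count of 432 UMIs). The ratio of 10.0 for 1700011M02Rik dropped to 3.52 without the cell with the lowest rule sum. Fabp3, a fatty acid binding protein gene, followed at 7.41 (1.76 without the 5 cells with Leydig transcripts), then the histone gene Hist1h2bc (7.39), Lgals1 (6.60), and Ube2c (5.62) and H2afz (5.28), genes of mitosis and chromatin. Hspb1, Actb and Gstm1 completed the 10, at 4.31, 4.29 and 4.20. This ranking left out mitochondrial and ribosomal protein genes, which the counts of genes include, and mt-Co1 was at 4.33. Without the 5 cells with Leydig transcripts 63 of 1260 genes passed the same limit (5%). Ranks were also compared over the 154 thinned cells with fewer than 5 Leydig gene UMIs. Those of Top2a went with those of Ccnb2 (Spearman rho 0.56) and Hmgb2 (0.54), Lgals1 with Siva1 (0.36), and Fos with Egr1 (0.34). For Cst12 with Cst9 the value was 0.29, and for Cst12 with Amh it was also 0.29. The points are cells of 1 library at the same depth, and these values describe them.

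**Figure D5:**
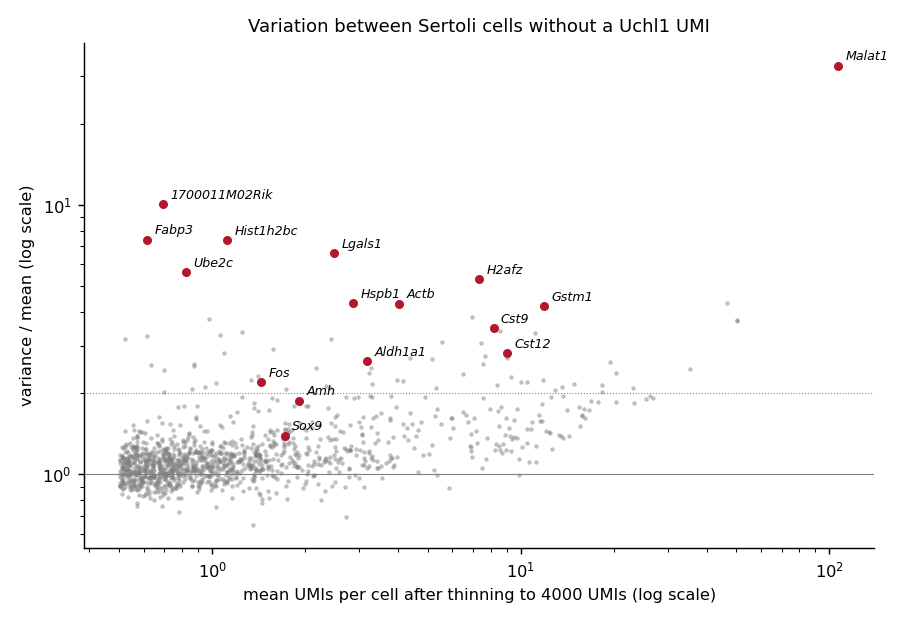
Each point is a gene in Uchl1-negative Sertoli cells thinned to 4000 UMIs, with its mean UMIs per cell on the horizontal and its variance over mean on the vertical axis, both on log scales; the solid line is at 1 and the dotted line at 2. Most genes lie near 1. The labelled genes include the 10 with the largest ratios, mitochondrial and ribosomal protein genes left out, from Malat1 at 32.8 to Gstm1 at 4.20.

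Mitotic transcripts were found in part of the cells. At least 5 UMIs over 10 mitotic genes were counted in 36 of the 169 Uchl1-negative cells, 21.3% (15.4 to 28.3%), and in 20.2% of Sertoli cells with Uchl1. The shares were 6.29% in stromal cells, 15.1% in myoid cells, 25.6% in macrophages and 81.7% in the deeper germ cells. At 5000 UMIs per cell they were 19.6% and 16.5% for the groups of Sertoli cells without and with Uchl1, and 6.79%, 10%, 19.5% and 53.2% for the others in that order. Of 22 cell cycle genes 0 were higher by at least 4-fold than in other somatic cells and 3 lower (median log2 ratio 0.12). The lower ones were the cyclin D3 gene Ccnd3, at 39.4 CPM against 252, and the cell cycle inhibitor genes Cdkn1c, at 6.68 against 194 CPM, and Cdkn1a, at 0 against 62 UMIs (at least 10.6-fold lower by a floor of 3 counts, upper interval limit of the log2 ratio -3.06). Against germ cells 0 of 21 were higher and 7 lower (-1.39), and cyclin D1, Ccnd1, was at 4.68 CPM against 110.

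Immediate early genes, which respond within minutes to stimuli and to tissue dissociation, were frequent. At least 5 UMIs over 6 such genes were counted in 73.4% of Uchl1-negative cells, 78.7% of Sertoli cells with Uchl1, 46.9% of stromal cells, 75.5% of myoid cells, 76.7% of macrophages and 11.6% of germ cells. At 5000 UMIs per cell the shares were 60.8%, 60.4%, 35.2%, 72%, 48.8% and 0%, the last with an upper interval limit of 1.31%. Fos was at 344 CPM against 368 in other somatic cells and 11.1 in germ cells, and Fosb at 205 CPM against 79.6 and 1.61. Of 9 genes of this list 0 were higher by at least 4-fold and 1 lower than in other somatic cells (median log2 ratio -0.10), and 5 of 9 were higher than in germ cells (2.93). The part of cell dissociation in these levels was not tested.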

How the data were processed

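Single-cell RNA of 1 wild-type library was analysed. Per the labels the authors used Cell Ranger 2.1.0 and the mm10 build (GRCm38), also naming Seurat without a version, and they deposited UMI counts per gene and barcode with no normalization (970 barcodes, 27998 genes, 11358045 UMIs). The paper's thresholds for removing cells were not given in the sources used here.

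Cells were grouped by the sums given above. Counts were summed over each group and divided by the group's total (CPM). Exact 95% intervals, Poisson for levels and binomial (Clopper-Pearson) for shares and, given the summed UMIs, for ratios, were made with numpy 2.4.6, scipy 1.17.1 and pandas 2.3.3 in Python 3.11.15. A ratio was computed for genes with at least 50 UMIs in both groups together, and the genes of the rule, Uchl1 and, for ranked genes, mitochondrial and ribosomal protein genes were left out. Named genes are those of the rule, the markers and 25 fixed lists (280 of 281 genes matched), and in each of the 3 comparisons the 10 highest and 10 lowest ratios (6 and 6 between the groups of Sertoli cells) among genes with at least 100 UMIs and a UMI in at least 25% of the higher group, with the 10 most variable genes. Some genes that these rules name are not reported here. The cells, lists and rules were chosen with earlier results of these data known. Doublets were not removed: scrublet in scanpy 1.11.5 called 4 of 970 barcodes, 1 of them among the 169 cells, too few to rely on. Another 20 settings of cell filters, limits, thinning and scaling were tried, and 3 that leave out cells were added after the data were seen.

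On counts simulated for 27998 genes, the intervals held a true ratio of 2-, 4- or 8-fold for 98.4%, 100% and 96.2% of the changed genes (63, 59 and 78) in the comparison with other somatic cells, and for 98.6%, 98.6% and 98.3% (69, 73 and 58) in that with germ cells. Between the groups of Sertoli cells they held it for 96.7%, 98.4% and 94.8% (61, 62 and 77). The simulated sums varied by counting error alone, and the changed genes had at least 100 UMIs. The intervals are built for such counts, so the simulation checks only that they were computed correctly. It cannot show how well they hold where cells vary beyond counting noise or genes are sparse.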

Additional observations from a re-analysis of the deposited data

Results flagged for a closer look

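Among the 46 barcodes removed for few genes or a high mitochondrial share, 11 met the rest of the rule for Sertoli cells without a Uchl1 UMI, and the comparisons do not use them. Their mitochondrial share was 10.1% at the lowest, 12.4% at the median and 19.3% at the highest. Their rule sums were 21, 40 and 143 UMIs and their depths 4023, 5595 and 15511 UMIs in the same order. Over the 9 Sertoli markers that the rule did not use they held 0, 31 and 129 UMIs.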

How the results depend on the processing

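No paired analysis was possible because all cells come from 1 library. With a mitochondrial limit of 5%, 43 Uchl1-negative cells remained and their share of Sertoli cells was 72.9%, and with the rule applied to counts thinned to 5000 UMIs that share was 71.7%. Counts of genes past the fold depended on these choices and on the lowest UMI count compared. Against other somatic cells they were 838 genes in all and 253 higher at the 5% limit, 503 lower after thinning, 2280 in all (956 higher, 1324 lower) at a minimum of 10 UMIs, 2142 in all (1052 higher) with at least 1 UMI in each group, and 487 (196 and 291) at a minimum of 200. Against germ cells they were 473 (285 higher, 188 lower) at the 5% limit, 1061 (600 and 461) after thinning, 3031 in all (1654 higher) at 10 UMIs, 3023 in all (1867 higher) with 1 UMI in each group, and 741 (347 and 394) at 200. Against Sertoli cells with Uchl1 they were 46 in all and 14 lower after thinning, 822 (467 and 355) at 10 UMIs, 1494 (701 and 793) with 1 UMI in each group, and 12 (7 and 5) at 200. Variable genes numbered 137 when cells were thinned to 6000 UMIs and 111 at the 5% limit.

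At the 5% limit the sign of the log2 ratio reversed for Fst (1.10), Rarg (0.10) and Nes (0.10) against germ cells and for Stra6 (0.54), Cyp17a1 (-2.04) and 1700011M02Rik (-0.043) against Sertoli cells with Uchl1, where 43 cells are left. Leaving out the cells with at least 5 Leydig gene UMIs was an alternative chosen after the data were seen. It reversed Cyp11a1 (-1.37), Cyp17a1 (-4.42), Hsd3b1 (-0.69) and the median of the Leydig list (-1.37) against other somatic cells. It also reversed Cyp17a1 (-0.35) against germ cells. Against Sertoli cells with Uchl1 it reversed Apoe (-0.13), Cyp11a1 (-0.66), Cyp17a1 (-0.66) and the Leydig median (-0.66). Leaving out the cell with the lowest rule sum, or the cell with neither cystatin nor Leydig transcripts, was also chosen after the data were seen. Of the main counts and shares 175 values stayed close to the reported ones and 40 did not, and of the values for single genes and lists 10134 stayed close, 831 did not and 15 reversed. Of these 831, 338 were at the 5% mitochondrial limit, 184 after thinning, 73 under median-of-ratios scaling and 62 with means of per-cell CPM. Only 1 library, 3 pooled mice and 2979 to 21938 UMIs per cell stand behind every value, so sparse genes such as Gdnf and Fshr are known only roughly.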
